A study of Mus musculus with 12 samples.

Results

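The glycosylphosphatidylinositol (GPI) anchor genes examined here encode the enzymes that build the anchor, attach it to proteins and remodel it afterwards. The list held 30 genes, of which 29 were found by symbol in the table of 51467 genes and 27 passed the filter on low counts. It was chosen by 2 values of these same data, the low total RNA of Pgap1 and the low total to 4sU ratio of Pigv in cells without Dgcr8. Those values, and the other values of Pgap1 and Pigv computed from them, are given below as a description, with no test, and enter no count of genes called. This leaves 25 members with a test in total RNA, 26 in nascent RNA and 25 for stability. Pigy was not found by symbol. Pigz and Gpld1 were found but did not pass the filter.

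The RNA came from mouse embryonic stem cells (ESCs), either wild-type (WT) or Dgcr8 KO. For these genotypes the methods of the study name the V6.5 line and 1 previously made Dgcr8 KO line, so the line and the genotype cannot be told apart. DGCR8 is needed to cut primary microRNA (miRNA) transcripts, and the question of the design is how transcription and mRNA stability differ when miRNAs are missing. Both genotypes were grown with serum, LIF and the 2i inhibitors and received 500 uM 4-thiouridine (4sU), a uridine analogue that enters newly made RNA, for 30 min. RNA of each sample was divided into a biotin-captured part, which measured nascent RNA (4sU), and a part depleted of ribosomal RNA, which measured steady-state RNA (total). Each of the 4 groups (WT 4sU, WT total, Dgcr8 KO 4sU and Dgcr8 KO total) held 3 libraries. The titles and genotype labels call the KO samples DGCR8 KO, whereas their source names read DDX8KO, and the titles were followed here. Nothing in the labels says whether the replicates were separate cultures, so p-values measure the spread between these samples, which may be technical.

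A GPI anchor is a glycolipid that holds a protein on the outer face of the cell membrane in place of a membrane-spanning stretch. It is assembled on phosphatidylinositol in the endoplasmic reticulum by the stepwise addition of glucosamine, mannoses donated by dolichol phosphate mannose, and ethanolamine phosphates. A transamidase then swaps the finished anchor for a signal peptide at the end of the protein, and later enzymes trim the inositol and exchange the lipid chains. In ESCs the anchored proteins include alkaline phosphatase (Alpl) and the Nodal co-receptor Cripto (Tdgf1).

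The depth was 4593914 to 6005526 counts a library in WT 4sU, 6873708 to 9295245 in WT total, 4775267 to 4998675 in Dgcr8 KO 4sU and 7184551 to 9215024 in Dgcr8 KO total. All 8 ESC markers passed the filter, with a summed level from 4011 to 7071 CPM (reads scaled to library size) across libraries. Their sums were 4011 to 4165 CPM in WT total and 4042 to 4101 in Dgcr8 KO total. In 4sU libraries they were 5755 to 5809 and 6295 to 7071. Total RNA of Nanog, Esrrb, Klf4, Tbx3 and Dppa5a was lower in Dgcr8 KO, with log2 changes from -0.17 to -0.40. That of Pou5f1, Sox2 and Zfp42 was higher, by 0.15 to 0.32, and all 8 had a limma adjusted p under 0.05. Of 6 fibroblast markers only Pdgfrb passed, and Dcn, a defining fibroblast gene, had 0 counts in all 12 libraries. Some marker sums differed between genotypes in total RNA. The 5 primed or early lineage markers, of which 2 passed, summed to 28.3 to 32.7 CPM in WT and 39.7 to 46.1 in Dgcr8 KO. Of these 2, Otx2 had 16.6 CPM in WT and 28.1 in Dgcr8 KO (log2 change 0.78, adjusted p = 1.69e-07 in limma). Sox1 did not pass the test (0.24, adjusted p = 0.113 in limma). Fgf5 had at most 1 count in any library of either genotype. The fibroblast list summed to 11 to 13.3 CPM in WT and 5.45 to 6.78 in Dgcr8 KO, and the 4 trophoblast markers to 57.8 to 70.4 and 39.7 to 42.6. The sums of primitive endoderm markers overlapped (8.74 to 11.3 and 9.99 to 12.9), while single markers differed. Mean total RNA of Pdgfra was 0.948 CPM in WT and 4.545 in Dgcr8 KO. That of Dab2 (1.99 and 0.0914), Sox17 (1.49 and 0.409) and Gata6 (0.596 and 0.226), which did not pass the filter, was lower in Dgcr8 KO. Gata4 had 4.92 and 6.48 CPM. The part of these marker differences in the results below was not tested. Dgcr8 total RNA was 101.6 ± 9.3 CPM in WT and 33.3 ± 1.09 CPM in Dgcr8 KO (SD, n = 3), lower by a log2 value of -1.60 (adjusted p = 6.63e-17 in limma). Reads of Dgcr8 remained in every library labelled Dgcr8 KO.

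The miRNAs lost with Dgcr8 include the ESC-enriched cell cycle (ESCC) family, which shares the seed AAGUGC. RefSeq (GRCm38.p6) listed 8 mature miRNAs with these letters at bases 2 to 7. At bases 2 to 8, shown in capitals, 5 of them read AAGUGCU, 2 read AAGUGCA and 1 reads AAGUGCC. Examples of each are shown because they define the letters searched in the anchor genes.
mmu-miR-290a-3p: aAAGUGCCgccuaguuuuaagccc
mmu-miR-291a-3p: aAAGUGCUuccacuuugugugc
mmu-miR-291b-3p: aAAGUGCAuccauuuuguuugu
mmu-miR-294-3p: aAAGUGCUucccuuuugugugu
mmu-miR-302b-3p: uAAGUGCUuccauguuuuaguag

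A 7mer match (AGCACTT, which pairs with AAGUGCU, or GCACTTA, on the transcript strand) was present in the 3′ UTR of 3 of 27 anchor genes with a 3′ UTR (11.1%), namely Pigg, Pigk and Pigs. Among all 11815 protein-coding genes tested, 21.2% held one. The 8mer AGCACTTA was in Pigk alone, against 3.62% of all genes. The hexamer GCACTT, which every one of these letters contains, was present in 10 anchor genes (37%) and in 33.8% of all genes. With GGCACTT and TGCACTT, which pair with AAGUGCC and AAGUGCA, searched as well, all 10 of these genes held a 7mer (37%), against 33.1% of all genes, a search added after the data were seen. The sites below are those of the narrower search and both sites of Pgap1, each 24 bases of mm10 with the letters that match one of the 3 seeds, and a following A where present, in capitals.
Pigk, AGCACTTA, chr3:152788455-152788478, plus strand: cagaacagAGCACTTAactctgga
Pigg, AGCACTT, chr5:108348461-108348484, plus strand: gggttagtAGCACTTgaagtgaaa
Pigs, TGCACTTA, chr11:78342562-78342585, plus strand: ccggcttcTGCACTTAacagacta
Pgap1, TGCACTT, chr1:54479433-54479456, minus strand: ttcacagtTGCACTTgtgaactta
Pgap1, GGCACTT, chr1:54474148-54474171, minus strand: gtagtcagGGCACTTctgcttcta
These matches are letters in an annotated 3′ UTR and no measure of binding. The 3′ UTR of Pgap1 was the longest of the list at 7712 bases, longer than in 99.0% of all genes, whereas the list median was 1305 bases and that of all genes 1192. Pigv and Pigt, which are described below for their total to 4sU ratios, held none of these letters in 3′ UTRs of 2123 and 774 bases.

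The members lay on 15 chromosomes. In WT total RNA, levels per length ran from 29.8 ± 2.00 CPM per kilobase of exons for Pigx, which stabilises the first mannosyltransferase, to 1.68 ± 0.150 for Pigc (SD, n = 3) among genes that passed the filter. Pigx and Pigf (28.4 ± 1.48) led that order and differed by less than their spread. In Dgcr8 KO total RNA, Piga led with 36.6 ± 1.88 CPM per kilobase. Pigz, the transferase of an optional further mannose, had 1 to 4 counts in total libraries of either genotype, 7 to 12 in WT 4sU and 14 to 17 in Dgcr8 KO 4sU. Gpld1, a phospholipase that cuts mature anchors, had 3 to 6 counts in WT total, 5 to 9 in Dgcr8 KO total and at most 3 in 4sU libraries of either genotype. No change is given for these genes at this depth.

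**Figure D1:**
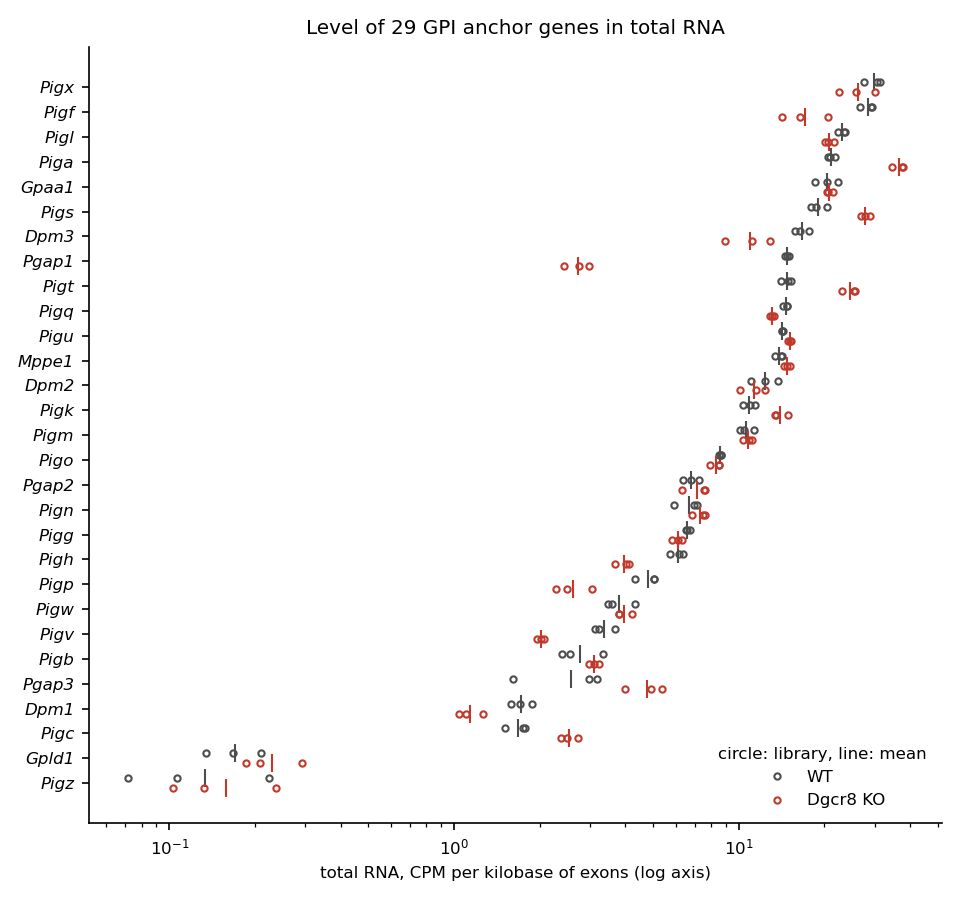
Level of the 29 anchor genes found, in total RNA, as CPM per kilobase of exons on a log axis (circles, libraries; lines, means of 3; grey, WT; red, Dgcr8 KO). Pgap1 moved from the upper part of the order in WT (14.8) to its lower part in Dgcr8 KO (2.72), and Pigz and Gpld1 lay below 0.3 in every library.

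In total RNA, 6 of the 25 anchor genes with a test were higher in Dgcr8 KO at a limma adjusted p under 0.05 (24%, against 27.2% of the 14033 genes tested) and 5 were lower (20%, against 36.7%). The higher genes were Piga, Pigc, Pigk, Pigs, Pigt and Pgap3, and the lower ones Pigh, Pigp, Pigf, Dpm1 and Dpm3. The 14 that did not pass lay between -0.19 and 0.18 on the log2 scale. The median change over all 27 genes was 0.02 and that of all genes tested -0.09. In bulk RNA, fewer cells of a type and less RNA per cell cannot be told apart. The threshold of the study is a change of over 1 on the log2 scale in either direction, beside an adjusted p below 0.05. Of the 25, 0 passed it with limma, edgeR or DESeq2, against 17.2% of all genes with limma, and 0 had that fold with an unadjusted p under 0.05. Pgap1, with a change of -2.44, was used to choose the list and is outside this count.

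In nascent RNA, 8 of 26 anchor genes were higher (30.8%, against 28.3% of all genes tested) and 7 lower (26.9%, against 28%), shares close to those of all genes. The median change was 0.09 for the 27 anchor genes and -0.02 for all genes. The 11 that did not pass lay between -0.04 and 0.26. Pgap1 was the only one of the 26 past the threshold of the study, which 14.8% of all genes passed. The list was chosen on the total RNA of Pgap1 in the same RNA samples, so its place in these counts is a description.

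For stability, which is the total to 4sU ratio and here its change between genotypes (the interaction term), 3 of 25 anchor genes were higher (12%, against 5.02% of all genes tested) and 1 lower (4%, against 11.1%). The higher genes were Pigm, Gpaa1 and Pigt, and the lower one Pigl. At the threshold of the study 0 of the 25 passed with limma, edgeR or DESeq2, against 1.76% of all genes with limma, and 0 had that fold with an unadjusted p under 0.05. The median change was -0.03 for the 27 anchor genes and -0.09 for all genes. Over all genes the split depended on the scaling, since 31.1% of the stability calls were higher with TMM, 52.2% with RLE and 46.6% with upper-quartile factors. The 4 anchor genes called with TMM were also called with each of these other factors.

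**Figure D2:**
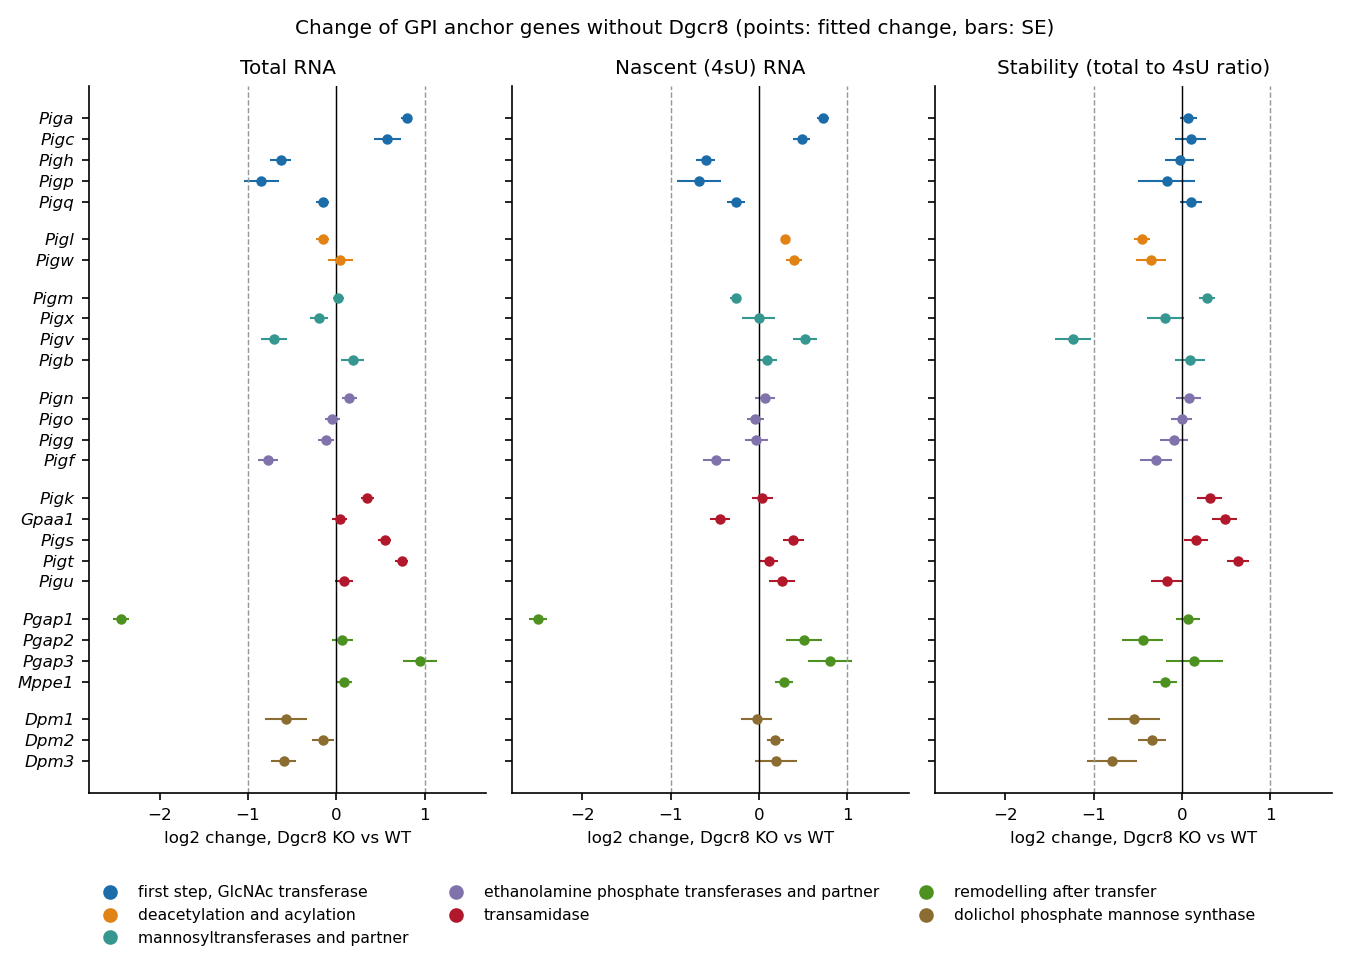
Fitted log2 change (points, Dgcr8 KO against WT; bars, SE) of 27 anchor genes in total RNA, nascent RNA and stability, in the order and colours of the pathway steps; dashed lines mark a log2 change of 1 in either direction. Pgap1 lay near -2.5 in total and nascent RNA and near 0 in stability, whereas Pigv lay at -1.23 in stability.

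The first step of the pathway transfers N-acetylglucosamine to phosphatidylinositol. Its complex holds the catalytic subunit encoded by Piga with the subunits encoded by Pigc, Pigh, Pigp, Pigq and Pigy. The measured subunits changed in opposite directions, with Piga and Pigc higher and Pigh and Pigp lower in both total and nascent RNA. None of the 5 passed the test for stability, where they lay between -0.17 and 0.11.

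Piga (ENSMUSG00000031381.16, mm10 chromosome X, 164419787 to 164433916, plus strand) had 79.5, 76.6 and 75.3 CPM in WT total libraries 1 to 3, and 138, 137 and 126 CPM in Dgcr8 KO total libraries. Its 4sU levels were 91.2, 81.8 and 79.9 CPM in WT and 141, 144 and 133 CPM in Dgcr8 KO. Every KO library lay above every WT library of the same kind. Piga rose by 0.80 in total RNA on the log2 scale (adjusted p = 1.47e-12 in limma, SE 0.0636), a 1.74-fold increase, and by 0.73 in nascent RNA (adjusted p = 1.58e-10 in limma, SE 0.0688).

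Pigc rose as well, from 7.13 ± 0.636 to 10.8 ± 0.733 CPM in total RNA (SD, n = 3), a log2 change of 0.58 (adjusted p = 0.00137 in limma, SE 0.153). In nascent RNA its change was 0.48 (adjusted p = 4.87e-05 in limma, SE 0.0922). Pigh went the other way, from 21.1 ± 1.13 to 13.6 ± 0.817 CPM in total RNA, a log2 change of -0.63 (adjusted p = 2.95e-05 in limma, SE 0.119). Its nascent change was -0.60 (adjusted p = 1.94e-05 in limma, SE 0.108). Pigq was lower in nascent RNA alone, by a log2 change of -0.26 (adjusted p = 0.0303 in limma, SE 0.102), and this was lost without WT replicate 3 (-0.18, adjusted p = 0.169), Dgcr8 KO replicate 2 (-0.21, adjusted p = 0.142) or Dgcr8 KO replicate 3 (-0.24, adjusted p = 0.0911).

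Pigp (ENSMUSG00000022940.16, chromosome 16, 94358763 to 94371015, minus strand) was among the genes of lowest level. It had 8.90, 8.90 and 7.67 CPM in WT total libraries and 5.42, 4.41 and 4.04 CPM in Dgcr8 KO total libraries, with no overlap. In 4sU libraries it had 6.43, 8.58 and 6.76 CPM in WT and 6.20, 3.05 and 4.57 CPM in Dgcr8 KO, where KO replicate 1 lay close to the lowest WT library. Total RNA fell by 0.85 on the log2 scale (adjusted p = 0.000402 in limma, SE 0.199). The nascent change of -0.68 (adjusted p = 0.0217 in limma, SE 0.25) was lost without WT replicate 2 (-0.57, adjusted p = 0.0795), Dgcr8 KO replicate 2 (-0.40, adjusted p = 0.208) or Dgcr8 KO replicate 3 (-0.69, adjusted p = 0.0505). Reads in exons shared with another gene on the same strand are dropped by the counting, which used GENCODE M14. In GENCODE M21 such sharing covers 12.5% of the exonic bases of Pigp, 6.1% of Pigh, 2.7% of Pigq and 1.9% of Pigc. The shares in M14 were not measured.

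RefSeq gives Pigy as an older name of Pigyl, a gene on chromosome 9 that was among the pathway partners examined beside the list. Pigyl fell from 25.5 ± 3.55 to 7.06 ± 0.385 CPM in total RNA (SD, n = 3), a log2 change of -1.85 (adjusted p = 1.93e-12 in limma, SE 0.149). Nascent RNA fell less, from 36.3 ± 2.20 to 19.5 ± 2.02 CPM, a log2 change of -0.89 (adjusted p = 2.06e-07 in limma, SE 0.121). The stability change was therefore -0.95 (adjusted p = 0.000574 in limma, SE 0.192). Pyurf, which in humans shares a transcript with a PIGY reading frame, passed no test, with a log2 change of -0.28 in total RNA (adjusted p = 0.305 in limma, SE 0.233).

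The next steps remove the acetyl group and acylate the inositol. Pigl, the deacetylase, and Pigw, the acyltransferase, were both higher in nascent RNA and showed no change past the test in total RNA. Pigl (ENSMUSG00000014245.8, chromosome 11, 62458460 to 62514417, plus strand) had 205, 203 and 199.6 CPM in WT 4sU and 255, 244 and 248 CPM in Dgcr8 KO 4sU. Its total RNA was 48.6, 51.5 and 50.8 CPM in WT and 44.9, 47.1 and 43.7 CPM in Dgcr8 KO. So every KO library lay above the WT libraries in 4sU and below them in total RNA. Nascent RNA rose by 0.30 on the log2 scale (adjusted p = 1.49e-05 in limma, SE 0.0526), total RNA differed by -0.15 (adjusted p = 0.063 in limma, SE 0.0721), and stability fell by 0.45 (adjusted p = 0.000465 in limma, SE 0.0892). Nascent RNA of Pigw rose by 0.39 (adjusted p = 0.000352 in limma, SE 0.0884), while its stability change of -0.35 did not pass the test (adjusted p = 0.176 in limma, SE 0.169).

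Mannoses are then added by the products of Pigm with its partner Pigx, of Pigv, of Pigb and, where a further one is added, of Pigz. Within this step Pigv and Pigm differed in direction for stability, and Pigx and Pigb passed no test. Pigv (ENSMUSG00000043257.15, chromosome 4, 133660387 to 133672647, minus strand), the transferase of the second mannose, had 14.7, 12.4 and 12.9 CPM in WT total libraries and 8.24, 8.05 and 7.79 CPM in Dgcr8 KO total libraries. In 4sU libraries it had 11.4, 14 and 15.7 CPM in WT and 20.4, 19.3 and 18.5 CPM in Dgcr8 KO. Every KO library was thus below WT in total RNA and above WT in nascent RNA, on 54 to 73 reads per KO total library. Total RNA was 1.64-fold lower and nascent RNA 1.43-fold higher in Dgcr8 KO, which gave a log2 change in stability of -1.23 (SE 0.203). Pigv was selected on that value, and it has no test here.

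Pigm, a gene of 1 exon on chromosome 1, had lower nascent RNA in Dgcr8 KO (174 ± 11.2 against 145 ± 3.31 CPM, SD, n = 3), a log2 change of -0.26 (adjusted p = 0.000535 in limma, SE 0.0617). Its total RNA was nearly equal, at 80.3 ± 4.67 and 81.5 ± 2.75 CPM. The stability change was 0.29 (adjusted p = 0.0266 in limma, SE 0.0908), and it did not pass without WT replicate 1 (0.29, adjusted p = 0.0758), Dgcr8 KO replicate 1 (0.24, adjusted p = 0.141) or Dgcr8 KO replicate 3 (0.27, adjusted p = 0.0744).

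Ethanolamine phosphates are added by the products of Pign, Pigo and Pigg, of which PIGO and PIGG act with the shared partner PIGF. The 3 transferase genes passed no test in any contrast and lay between -0.12 and 0.15 on the log2 scale. Pigf differed from them. It fell from 28.1 ± 1.47 to 16.9 ± 3.23 CPM in total RNA (SD, n = 3), a log2 change of -0.78 (adjusted p = 2.82e-07 in limma, SE 0.11). Its nascent RNA fell by 0.48 (adjusted p = 0.00687 in limma, SE 0.15). The stability change of -0.29 did not pass (adjusted p = 0.32 in limma, SE 0.186).

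The transamidase that attaches the anchor has 5 subunits, encoded by the protease-like Pigk and by Gpaa1, Pigs, Pigt and Pigu. In total RNA, 3 of the 5 rose, where 27.2% of all genes were higher, and none fell, where 36.7% were lower, with the subunits between 0.04 and 0.74 on the log2 scale. Per length they lay from 10.9 to 20.4 CPM per kilobase in WT total RNA and from 13.9 to 27.9 in Dgcr8 KO. In nascent RNA 1 rose (Pigs) and 1 fell (Gpaa1), where 28.3% and 28% of all genes did. For stability 2 rose (Pigt and Gpaa1), where 5.02% of all genes did. With 5 genes such shares are a description.

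Pigt (ENSMUSG00000017721.15, chromosome 2, 164497520 to 164508301, plus strand), whose product holds the complex together, had 42.2, 45.7 and 44.7 CPM in WT total libraries and 76.6, 76.3 and 69.3 CPM in Dgcr8 KO total libraries. Its 4sU levels were 28.8, 31.2 and 34.0 CPM in WT and 36.0, 31.7 and 33.3 CPM in Dgcr8 KO. The genotypes were far apart in total RNA and overlapped in nascent RNA. Total RNA rose by 0.74 (adjusted p = 2.09e-10 in limma, SE 0.0736) and stability by 0.63 (adjusted p = 0.000529 in limma, SE 0.127), whereas the nascent change was 0.11 (SE 0.103).

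Gpaa1 on chromosome 15 had lower nascent RNA in Dgcr8 KO (29.8, 25.2 and 28.0 CPM, against 35.2, 34.9 and 42.9 in WT) and overlapping total RNA (43.2, 45.3 and 43.0 CPM, against 46.8, 39.0 and 43.1). Its nascent change was -0.44 (adjusted p = 0.00102 in limma, SE 0.111) and its stability change 0.48 (adjusted p = 0.0146 in limma, SE 0.139). The stability call was lost without WT replicate 3 (0.39, adjusted p = 0.0779) or Dgcr8 KO replicate 2 (0.39, adjusted p = 0.124). Pigs rose in total RNA by 0.55 (adjusted p = 7.73e-08 in limma, SE 0.0726) and in nascent RNA by 0.39 (adjusted p = 0.00552 in limma, SE 0.117). Pigk, with the 8mer site printed above, rose in total RNA by 0.35 (adjusted p = 7.05e-05 in limma, SE 0.0712), with a stability change of 0.31 that did not pass (adjusted p = 0.136 in limma, SE 0.141). Pigu passed no test. For Pigs and Pigg, the other genes with a 7mer of the narrower search, the stability changes were 0.16 (SE 0.138) and -0.09 (SE 0.16), and neither passed.

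After transfer, PGAP1 removes the acyl chain from the inositol, MPPE1 removes an ethanolamine phosphate, PGAP3 removes a fatty acid, and PGAP2 is needed for its replacement by a saturated one. Pgap1 (ENSMUSG00000073678.4, chromosome 1, 54472994 to 54557682, minus strand) had 156, 159 and 154 CPM in WT total libraries and 31.6, 25.7 and 29.2 CPM in Dgcr8 KO total libraries. Its 4sU levels were 162, 189 and 147 CPM in WT and 27.4, 30.7 and 28.8 CPM in Dgcr8 KO. The genotypes were far apart in both kinds of library. Total RNA was 5.42-fold lower, a log2 change of -2.44 (SE 0.0896) that was used to choose the list and has no test here. Nascent RNA fell by 2.5 on the log2 scale (adjusted p = 3.10e-19 in limma, SE 0.103), a 5.67-fold decrease. The nascent libraries were made from the same RNA samples, so this p is not independent of the choice of the list. The stability change was 0.07 (SE 0.137). Thus the change in total RNA of Pgap1 was of the size seen in nascent RNA, whereas Pigt and Pigl changed by different amounts in the 2 kinds of library.

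**Figure D3:**
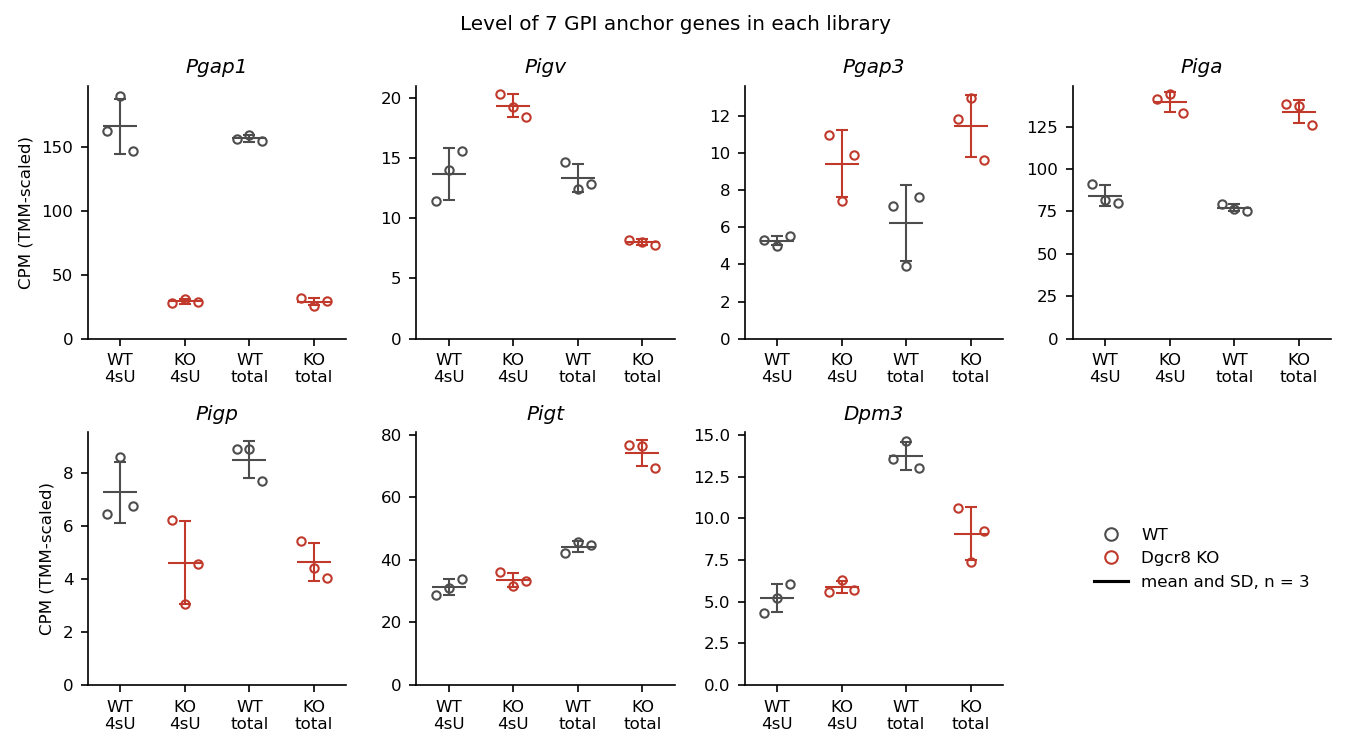
CPM (scaled by TMM) of 7 anchor genes in each of the 12 libraries (circles) with the mean and SD of 3 (grey, WT; red, Dgcr8 KO). Pgap1 was lower in every KO library of both kinds, Pigv was lower in total and higher in 4sU, and Pigt overlapped in 4sU and was higher in total.

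The other remodelling genes were higher in nascent RNA, with calls for Pgap2 and Mppe1 that depended on the processing. Pgap3 (ENSMUSG00000038208.13, chromosome 11, 98388677 to 98400490, minus strand) had 7.18, 3.90 and 7.67 CPM in WT total libraries and 11.9, 13 and 9.67 CPM in Dgcr8 KO total libraries. In 4sU libraries it had 5.31, 5.02 and 5.52 CPM in WT and 11, 7.44 and 9.90 CPM in Dgcr8 KO. The genotypes did not overlap, and WT total replicate 2 was low beside the other two. Total RNA rose by 0.95 (adjusted p = 8.82e-05 in limma, SE 0.195), just under the fold threshold of the study, and nascent RNA by 0.80 (adjusted p = 0.00735 in limma, SE 0.252). Without WT replicate 2 the total change was 0.61 (limma adjusted p = 0.00583).

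Pgap2 and Mppe1 rose in nascent RNA, with changes of 0.51 (adjusted p = 0.0329 in limma, SE 0.204) and 0.28 (adjusted p = 0.0174 in limma, SE 0.101), and lay at 0.07 and 0.09 in total RNA. The Pgap2 call was lost without WT replicate 1 (adjusted p = 0.146), WT replicate 2 (0.123), Dgcr8 KO replicate 1 (0.0641) or Dgcr8 KO replicate 2 (0.134). In GENCODE M21, 22.4% of the exonic bases of Pgap2 are shared with another gene. The Mppe1 call was lost without WT replicate 1 (adjusted p = 0.0821) or Dgcr8 KO replicate 3 (0.056). With DESeq2 the Pgap2 and Mppe1 calls were also lost (adjusted p = 0.0672 and 0.108), as with limma on RLE factors (0.0591 and 0.0535). Pgap2 also missed in limma with upper-quartile factors (0.0531) and with no filter beyond 1 count (0.0684).

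Dolichol phosphate mannose, the donor of every mannose of the anchor, is made by a synthase with the catalytic subunit DPM1 and the small subunits DPM2 and DPM3. All 3 genes had a nascent change between -0.03 and 0.19 that did not pass the test, and 2 of them fell in total RNA, where 36.7% of all genes did. Dpm3 (ENSMUSG00000042737.9, chromosome 3, 89259358 to 89267077, plus strand) had 13.6, 14.6 and 13 CPM in WT total libraries and 10.6, 7.40 and 9.24 CPM in Dgcr8 KO total libraries, with no overlap. Its 4sU levels were 4.34, 5.23 and 6.05 CPM in WT and 5.60, 6.30 and 5.71 CPM in Dgcr8 KO, which overlapped. Total RNA of Dpm3 fell by 0.60 (adjusted p = 0.000544 in limma, SE 0.144). The stability change of -0.79 missed the threshold (adjusted p = 0.0513 in limma, SE 0.281) and passed it without WT replicate 3 (-0.96, adjusted p = 0.0426) or Dgcr8 KO replicate 1 (-0.97, adjusted p = 0.0417), and with 3 CPM required in all 12 libraries (-0.78, adjusted p = 0.0242).

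Dpm1 was lower in total RNA, with 4.30 ± 0.368 CPM in WT and 2.83 ± 0.293 in Dgcr8 KO (SD, n = 3), a log2 change of -0.57 (adjusted p = 0.034 in limma, SE 0.235). This call was lost without WT replicate 1 (adjusted p = 0.0792), WT replicate 2 (0.06), Dgcr8 KO replicate 2 (0.106) or Dgcr8 KO replicate 3 (0.0787) and with DESeq2 (adjusted p = 0.0746). In GENCODE M21 another gene shares 35.9% of the exonic bases of Dpm1. Dpm2 passed no test.

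Total and nascent changes of the members were set side by side. Of the 25 genes other than Pgap1 and Pigv, 4 were higher in both (Piga, Pigc, Pigs and Pgap3) and 3 lower in both (Pigh, Pigp and Pigf). Pigk and Pigt were higher in total RNA alone, and Dpm1 and Dpm3 lower in total RNA alone. In nascent RNA alone, Pigl, Pigw, Pgap2 and Mppe1 were higher and Pigm, Pigq and Gpaa1 lower. The remaining 7 passed neither test. A call in one contrast and not in the other does not show that they differed. That difference is the stability term above, which 4 of the 25 passed.

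**Figure D4:**
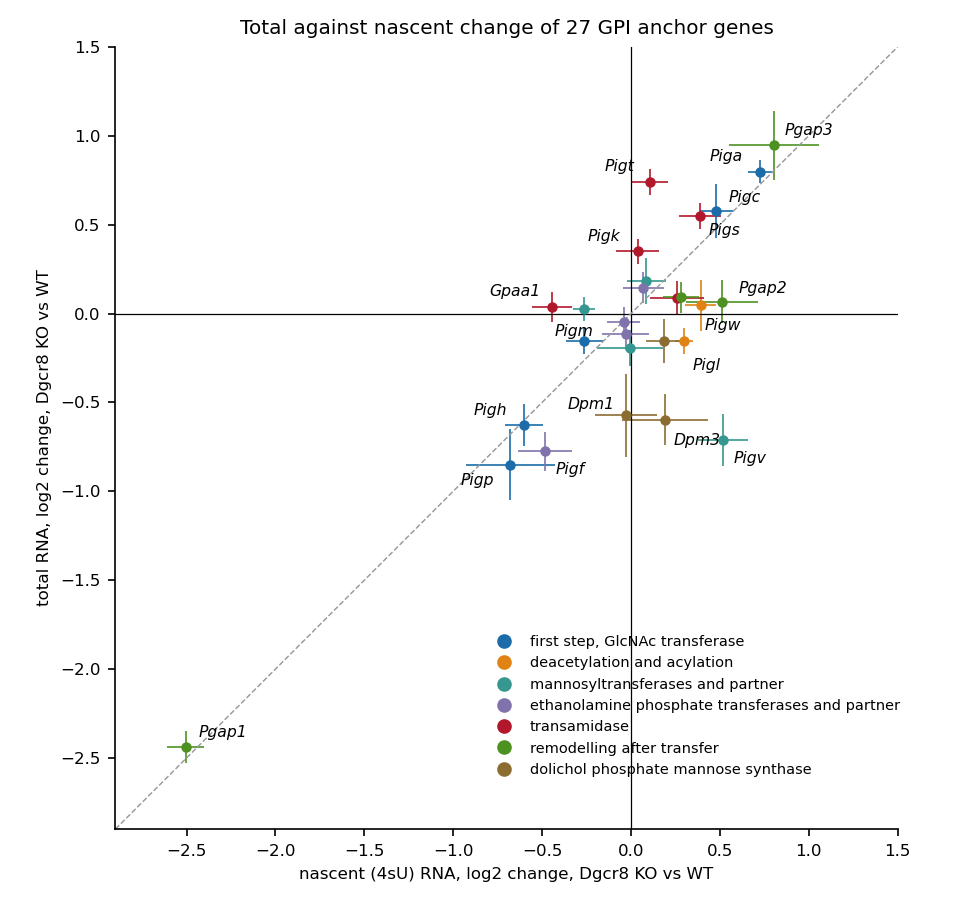
Log2 change in total RNA against that in nascent RNA for 27 anchor genes (bars, SE; colours, pathway steps; dashed line, equal change). Pgap1 lay on the line at its lower end, Pigt and Gpaa1 lay above it and Pigv and Pigl below it.

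Within each genotype, the total to 4sU ratio of a gene was given relative to the median of all genes tested. In WT the anchor genes spanned a 12.5-fold range, from -2.25 for Pigc to 1.40 for Pigx on the log2 scale, and in Dgcr8 KO a 16.6-fold range, from -2.46 for Pigl to 1.60 for Pigk. The middle 50% of all genes in WT ran from -1.09 to 0.80. In each genotype 14 of 27 anchor genes lay above the median of all genes. The median anchor gene was 0.07 above it in WT (0.0722 ± 0.222 over replicates, SD, n = 3) and 0.07 in Dgcr8 KO (0.0897 ± 0.119), less than the spread between replicates, and the sign in WT turned without replicate 1 (-0.05) or replicate 3 (-0.0039).

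The lowest WT ratios were those of Pigc (-2.25), Pigl (-2.09) and Pigw (-2.08), and the highest those of Pigx (1.40), Dpm3 (1.32), Pgap2 (1.21) and Pigk (1.20). Pigc, Pigw and Pigm are the 3 tested members whose transcripts have at most 2 exons, and their ratios lay between -2.25 and -1.20. Among all protein-coding genes tested, the median ratio was -1.23 for the 811 genes with at most 2 exons and 0.31 for the other 11073. Pigl, with 7 exons, was as low without being of that kind. The transamidase subunits lay between 0.10 and 1.20 in WT and between 0.67 and 1.60 in Dgcr8 KO. Pigv moved from -0.12 in WT to -1.26 in Dgcr8 KO.

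**Figure D5:**
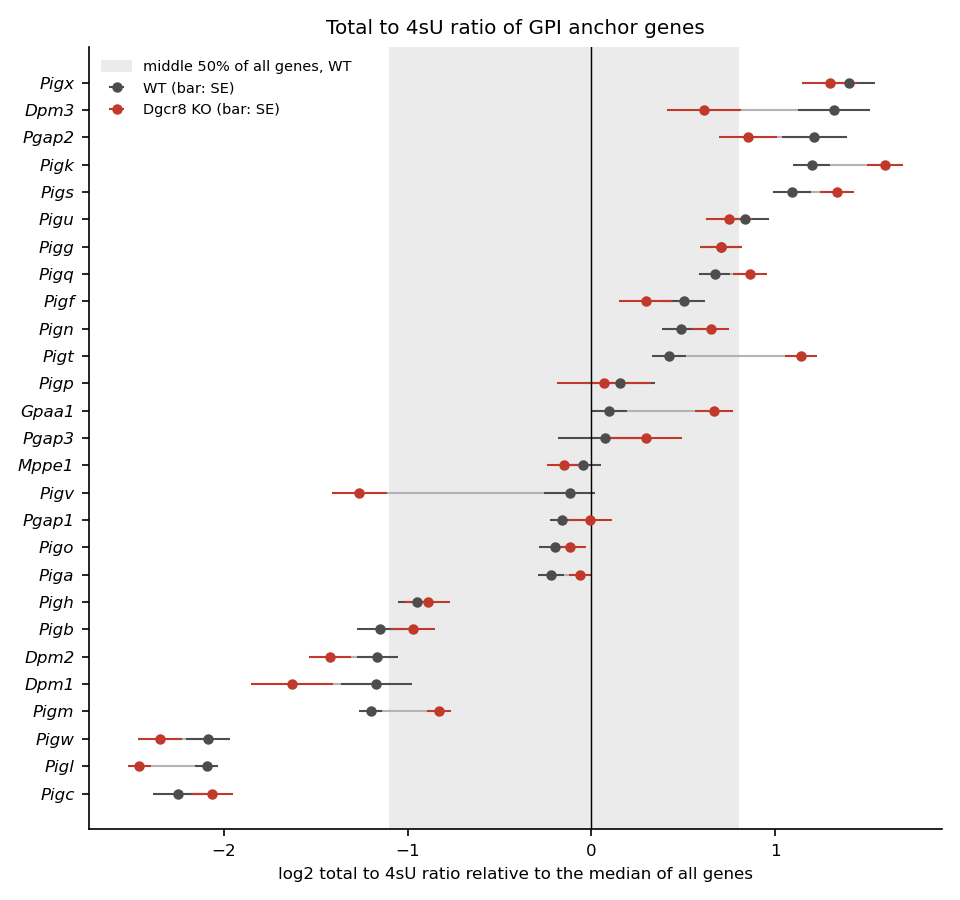
Log2 total to 4sU ratio of 27 anchor genes relative to the median of all genes, in WT (grey) and Dgcr8 KO (red) with SE, in the order of WT; the shaded band holds the middle 50% of all genes in WT. Pigv showed the widest gap between genotypes, from -0.12 to -1.26, and Pigc, Pigl and Pigw lay below -2 in both.

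Of 20 pathway partners outside the list, 17 were tested. In total RNA 6 were higher (35.3%, against 27.2% of all genes tested) and 3 lower (17.6%, against 36.7%). In nascent RNA 3 were higher (17.6%, against 28.3%) and 4 lower (23.5%, against 28%), and for stability 2 were higher (11.8%, against 5.02%) and 4 lower (23.5%, against 11.1%). Their median changes were 0.00 in total RNA, -0.01 in nascent RNA and 0.10 in stability. Clptm1l, which moves an early anchor intermediate across the membrane, rose in total RNA by 0.60 (adjusted p = 9.69e-09 in limma, SE 0.0719) and fell in nascent RNA by 0.33 (adjusted p = 0.00286 in limma, SE 0.0915). Its stability thus rose by 0.93 (adjusted p = 6.85e-07 in limma, SE 0.116), the largest rise among partners and members.

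Cdipt, which makes the phosphatidylinositol on which the anchor is built, went the other way. Its total RNA fell by 0.58 (adjusted p = 5.86e-07 in limma, SE 0.0858) and its stability by 0.67 (adjusted p = 0.000188 in limma, SE 0.122), from total levels of 50.4 ± 1.44 CPM in WT and 33.7 ± 1.57 in Dgcr8 KO (SD, n = 3). Of the dolichol genes, Dolpp1 rose in nascent RNA by 0.53 and fell in stability by 0.67 (adjusted p = 0.00264 in limma, SE 0.157), and Mpdu1 fell in total RNA by 0.32 (adjusted p = 0.000116 in limma, SE 0.0673) and in stability by 0.31 (adjusted p = 0.0349 in limma, SE 0.103). The Mpdu1 stability call was lost without WT replicate 2 (adjusted p = 0.126), Dgcr8 KO replicate 1 (0.108) or Dgcr8 KO replicate 2 (0.0982) and with RLE factors (0.164). Arv1, which acts near the first step, fell in nascent RNA by 0.64 (adjusted p = 0.000979 in limma, SE 0.158).

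Genes for the export of anchored proteins from the endoplasmic reticulum showed both directions. Tmed2 and Tmed5, of the p24 cargo receptors, rose in total RNA by 0.55 (adjusted p = 0.000148 in limma, SE 0.118) and 0.48 (adjusted p = 4.99e-06 in limma, SE 0.081). Tmed9 fell in nascent RNA by 0.50 (adjusted p = 1.81e-06 in limma, SE 0.0775), and its stability rose by 0.44 (adjusted p = 0.0029 in limma, SE 0.104). Of the Sec24 genes for coat proteins of export vesicles, Sec24d rose by 0.68 in both total and nascent RNA (limma adjusted p = 4.12e-09 and 3.06e-06), and Sec24c rose in total RNA by 0.29 (limma adjusted p = 0.000685). Tmem8, an acyl hydrolase that can act on anchors, rose by 0.61 in total RNA (limma adjusted p = 2.81e-08) and 0.37 in nascent RNA (limma adjusted p = 0.00355).

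Of 101 genes for proteins that carry the anchor, 39 passed the filter. In total RNA 20 were higher (51.3%, against 27.2% of all genes tested) and 8 lower (20.5%, against 36.7%). In nascent RNA 19 were higher (48.7%, against 28.3%) and 7 lower (17.9%, against 28%), and for stability 3 were higher (7.69%, against 5.02%) and 1 lower (2.56%, against 11.1%). The median changes were 0.41, 0.46 and 0.03. A gene that passed the filter only through the genotype where it is high had to differ, so these counts are a description. Vnn1 is such a gene, with 18 to 29 counts in WT total and 20 to 35 in WT 4sU libraries but 0 to 4 and 2 to 3 in Dgcr8 KO, and no change is given for it. Of the other carriers called in total RNA, Dpep3 and Cntn2 had means below 3 CPM in both kinds of Dgcr8 KO library. Efna5 and Meltf had such means in both kinds of WT library. All of them remain in the counts. After Vnn1, the largest fitted changes in total RNA were those of Cd109 (4.18, adjusted p = 7.52e-23 in limma, SE 0.13) and Nt5e (4.15, adjusted p = 1.39e-19 in limma, SE 0.172). Cd109, a protease inhibitor of the cell surface, went from 7.77 ± 1.57 to 142 ± 7.94 CPM, and Nt5e, the ecto-5′-nucleotidase, from 3.87 ± 0.106 to 70.0 ± 2.24 CPM (SD, n = 3).

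In nascent RNA the largest changes of these carriers were Cd109 (3.99, adjusted p = 3.56e-14 in limma, SE 0.263), Nt5e (3.81, adjusted p = 5.60e-14 in limma, SE 0.256) and Plaur, the urokinase receptor (3.57, adjusted p = 5.58e-16 in limma, SE 0.198). For stability the largest after Vnn1 were Bst2 (-0.75, SE 0.285) and Sema7a (0.73, SE 0.462), and neither passed (limma adjusted p = 0.0695 and 0.319). The carriers that passed had smaller changes. Tdgf1 was lower in stability (-0.65, adjusted p = 4.33e-06 in limma, SE 0.0911). Its nascent RNA was higher by 0.69 (adjusted p = 1.06e-09 in limma), and its total RNA lay at 0.03 (adjusted p = 0.641 in limma). Msln (0.63, SE 0.19), Reck (0.61, SE 0.184) and Cd55 (0.41, SE 0.118) were higher in stability (limma adjusted p = 0.0205, 0.0206 and 0.0135). These are outside the gene results recomputed with other settings. Bst2, which tethers enveloped viruses to the cell, passed with a block by culture, which treats the 4sU and total libraries of the same number as a pair (-0.76, adjusted p = 0.0435), with a block by replicate number (-0.78, adjusted p = 0.031) and with 3 CPM required in all 12 libraries (-0.73, adjusted p = 0.0383).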

How the data were processed

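The deposited table held whole-number read counts per gene that the authors had not normalized, for 3 replicates of each genotype and library type, with groups and numbers taken from the sample titles (the source names of the KO samples read DDX8KO). As the file header, the submitters' processing notes and the paper's methods state, the authors trimmed single-end 50-base reads with cutadapt 1.14, mapped them uniquely to mm10 with STAR 2.5.3a and counted them with featureCounts 1.5.3 (strand setting 2, GENCODE M14 without rRNA genes). Unique mapping under-counts near-identical genes, and exonic bases shared by genes on the same strand are not counted. The 92 spike-in rows held 1 count in all, so no absolute scaling was made and changes are relative to all RNA of a library. No column was left unused. Reads were not collapsed to molecules. Printed ranges of counts are the lowest and highest among the libraries of a group, before scaling for depth.

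Gene identifiers were matched to GENCODE M21 (51274 of 51559), the source of symbols, exons and the longest 3′ UTR per gene. Genes with at least 3 CPM in at least 3 libraries were kept. Counts were scaled by TMM factors (edgeR 4.0.16) and fitted with voom weights in limma 3.58.1 (R 4.3.3). One model covered all 12 libraries, with terms for genotype, library type and their interaction. Adjusted p is Benjamini-Hochberg over all 14033 genes. Printed CPM are TMM-scaled. Alternatives were the edgeR quasi-likelihood test, DESeq2 1.42.0, RLE, upper-quartile and library-size scaling, other filters, replicate blocks and leaving out each replicate (its 4sU and total library together).

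The members and lists were chosen with earlier results of these data known. All members are accounted for. Change, SE and adjusted p are given where the adjusted p was under 0.05 or the absolute log2 change over 1, values in every library for Pgap1, Pigv and the 3 largest changes per contrast, and for carriers of the anchor the 3 largest changes. Pigl, Gpaa1, the carriers named beyond the 3 largest changes and values of members that missed the threshold were added after their values were seen. Scripts were tested on simulated counts, where 199 of 199 genes changed 4-fold in total RNA were called among 13394 tested, with 5 other calls. Smaller changes, such as those of most anchor genes, and changes in nascent RNA were not simulated.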

Additional observations from a re-analysis of the deposited data

Results flagged for a closer look

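Each gene below stands here because its genotype effect differed between total and nascent RNA, as measured by the interaction term, with the limma adjusted p in the report. Among the anchor genes, the differences (total minus nascent change, log2) were -0.45 for Pigl, 0.29 for Pigm, 0.63 for Pigt and 0.48 for Gpaa1. For Pigv it was -1.23, with every KO library below WT in total RNA and above it in 4sU RNA, and this difference was not tested because Pigv was selected on it. Among the pathway partners the differences were 0.93 for Clptm1l, -0.67 for Cdipt, -0.31 for Mpdu1, -0.67 for Dolpp1, -0.95 for Pigyl and 0.44 for Tmed9.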

How the results depend on the processing

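Over 67 gene results and 945 recomputed values, no called direction turned, and 11 gene results changed their side of the threshold in at least 1 alternative, which the report names for replicates left out, except Vnn1. Counts of members leave out the untested values of Pgap1 and Pigv. With library-size scaling 1 member (Pgap3, 1.00) passed the threshold of the study in total RNA in place of 0, and leaving out 1 replicate gave 0 to 1. With no filter beyond 1 count, 2 members in place of 4 passed for stability (Gpaa1 and Pigm were lost). Over all genes, 2407, 2073 and 247 passed the threshold of the study in total RNA, nascent RNA and stability, 4002, 3801 and 341 with no filter and 1045, 837 and 115 with 3 CPM in all 12 libraries, which test more and fewer genes. At adjusted p alone, stability calls were 2261 and, with no filter, 1459. The median WT ratio of the anchor genes was 0.63 with no filter and -0.19 with 3 CPM in all 12 libraries, and from -0.0515 to 0.113 (including -0.0039) with 1 replicate left out. The KO median was 0.66 and -0.11 under those filters. The 7mer count of 3 became 10 with any hexamer, 10 with a 7mer of any of the 3 seeds (added after the data were seen) and 1 with the 8mer. The replicate numbers did not pair WT with KO samples (correlations of same-numbered libraries from -0.0029 to 0.0146 in total and -0.0825 to 0.0777 in 4sU RNA). Of 6 libraries of each kind, 3 in total and 2 in 4sU RNA correlated best with the library of their own number. Within a genotype, total and 4sU libraries of the same number had correlations from 0.0361 to 0.105 in WT and 0.0161 to 0.0436 in Dgcr8 KO. The main model did not use that pairing. With the number as a replicate block, 11, 15 and 5 members passed in total RNA, nascent RNA and stability, against 11, 15 and 4 without, the gain being Dpm3 (-0.79, limma adjusted p = 0.0405). A block by culture gave 4 members for stability, and it cannot be set for total or nascent RNA alone. Over all genes it gave 2749 stability calls at adjusted p alone, against 2261 without. Among the anchor carriers both blocks added Bst2. Depth limits Pigz, Gpld1, Pigp, Pgap3 and Dpm1, with few reads per library. It also limits the 4sU values of Dpm3 and Pgap2, with 25 to 34 and 29 to 52 counts in WT 4sU libraries.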
